A study of Mus musculus with 34 samples.

Results

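The mouse gene Nrp1 was described by all binding sites of Foxp3, BATF and IRF4 that lie nearest to it. A peak, that is a genomic interval in which immunoprecipitated DNA piles up, was taken when Nrp1 was the closest protein-coding gene in mm10 and its gene body was at most 100000 bp away. This gave 24 peaks of the 41612 in 4 deposited peak tables: 9 of 6396 Foxp3 peaks, 5 of 16109 and 4 of 9973 BATF peaks in a first and a second table, and 6 of 9134 IRF4 peaks. The locus was chosen because a site there was lower for Foxp3 without BATF and lower for BATF with an altered Foxp3, so the values of those 2 contrasts are given below as a description, with no test.

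The series holds 34 chromatin immunoprecipitation sequencing (ChIP-seq) samples, 24 of antibody-enriched DNA and 10 of input DNA, from CD4+ T cells of C57BL6/J mice, sorted fresh out of the spleen and lymph nodes. All mice carried a Foxp3 allele with IRES-hCD2, so that Foxp3-expressing cells display human CD2. Foxp3 was profiled in effector Treg cells (CD4+hCD2+CCR7loCD62Llo), central Treg cells (CD4+hCD2+CCR7hiCD62LhiCD44lo), Treg cells of Foxp3-IRES-hCD2.Batf-/- mice, called Batf knockout here, and Treg cells (CD4+hCD2+) with Batf intact, called wild-type here, with 2 samples each. BATF was profiled in Treg cells (CD4+hCD2+) and in Tconv cells (conventional T cells, CD4+hCD2-), with 2 samples each in the first table. The second BATF table adds 2 samples of R397W Treg cells (CD4+hCD2+GFP-, from Foxp3R397W-IRES-hCD2/Foxp3-IRES-GFP mice) and 2 of their control Treg cells (CD4+hCD2+GFP-, from Foxp3WT-IRES-hCD2/Foxp3-IRES-GFP mice). In both, the sort kept cells that use the hCD2-marked allele and not the GFP-marked wild-type allele, and R397W is an amino acid substitution in the DNA-binding forkhead domain of Foxp3. IRF4 was profiled in Treg and Tconv cells with 4 samples each, and no antibody is named for it in the labels. Age is not given in the labels, and the Batf knockout is labelled without a cell type to which it is restricted.

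Nrp1 encodes neuropilin-1, a surface co-receptor with a short cytoplasmic tail and no enzymatic activity of its own. It binds class 3 semaphorins and vascular endothelial growth factor and passes their signals on through plexins and VEGF receptors. In mice it is widely used as a surface marker of thymus-derived Treg cells, where its interaction with Sema4a on other immune cells has been linked to Treg stability. Foxp3 is the forkhead factor that defines Treg cells. BATF is a basic leucine zipper factor that pairs with JUN proteins on AP-1 sites and, together with the interferon regulatory factor IRF4, on composite AP-1 and IRF elements.

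The Nrp1 gene (gene ID 18186, plus strand) spans 128358591 to 128505476 on chromosome 8, that is 146886 bp. The next protein-coding gene downstream is Itgb1, which encodes the integrin beta-1 chain and starts 180178 bp past the end of Nrp1. A long non-coding RNA gene, A930035F09Rik, ends 354 bp before Nrp1, another, Gm32643, lies inside the Nrp1 gene body, and the microRNA gene Mir1903 lies near its start. Exon and intron positions were not used here, so a peak is placed only inside or outside the gene body. Peak positions are as deposited in mm10, and whether their first base is counted from 0 or 1 could not be settled.

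The 24 peaks fell into 12 sites when overlapping peaks of different tables were joined. Of these, 1 lay upstream, 7 inside the gene body and 4 downstream, and 9 had a Foxp3 peak, 6 a BATF peak and 6 an IRF4 peak. All 3 factors met at 3 sites. Foxp3 alone was listed at 5 sites, BATF alone at 1, BATF with IRF4 at 2 and Foxp3 with IRF4 at 1.

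The single BATF-only site sits on the promoter. The promoter sequence is shown because this is the only place in the locus where a peak meets the annotated promoter window. The peak (chromosome 8, 128358975 to 128359375) covers the Mir1903 hairpin gene (128359241 to 128359320) and shares 148 bases, from 128358975 to 128359122, with the promoter window of RefSeq (build GRCm38.p6, which is mm10). That window of 300 bases is chr8:128358823-128359122 on the plus strand, with the start site at 128359073. This start site lies inside the gene body, which begins at 128358591, before the peak. The part under the BATF peak, counted with a first base of 1, is in capitals, read 5′ to 3′.
Nrp1 promoter: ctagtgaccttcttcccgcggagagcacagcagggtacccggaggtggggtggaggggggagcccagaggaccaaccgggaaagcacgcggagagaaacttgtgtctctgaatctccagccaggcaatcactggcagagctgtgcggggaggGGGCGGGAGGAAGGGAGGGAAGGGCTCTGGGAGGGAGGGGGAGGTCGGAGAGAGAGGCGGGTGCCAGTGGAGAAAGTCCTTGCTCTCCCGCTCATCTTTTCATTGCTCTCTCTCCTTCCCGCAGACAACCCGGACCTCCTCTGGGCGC
The window was searched on both strands for the AP-1 letters TGANTCA, the CRE-like AP-1 letters TGACGTCA and the forkhead letters TGTTTAC. None of these letters was found in this window. The rest of the peak, with its centre at 128359175, lies past the end of the window and was not read. Whether the peak holds these letters is therefore not known. Of 32851 RefSeq promoter windows of the same length, 7.81% hold the AP-1 letters, 1.79% the CRE-like letters and 3.65% the forkhead letters, and none of these motifs contains another. The sequence of the other sites was not read here.

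The values are the authors' normalised reads per peak, in which a whole number of reads in the peak is multiplied by 1 scaling factor per library. Reads in peaks ranged over libraries between 164740 and 393310 for Foxp3, 1377509 and 2280493 for BATF in the first table, 144319 and 1009580 in the second, and 162580 and 336969 for IRF4. A count of 3 reads was worth between 1.73 and 4.00 for Foxp3, 2.14 and 3.48 for BATF in the first table, 1.32 and 10.4 in the second, and 2.09 and 4.76 for IRF4. Fold changes are on the scale of value plus 1, and a peak was called when limma's p-value, adjusted by Benjamini-Hochberg over all peaks of its table, was below 0.05. The labels do not say whether samples of a group came from separate animals, so p-values measure only the spread between these samples, which may be technical. In bulk cells, binding in fewer cells and weaker binding per cell cannot be told apart. Groups of 2 libraries can easily separate by chance, so a lack of overlap between them is a description only. The share of all peaks whose groups do not overlap was not counted. Batf itself had no Foxp3 peak within reach, so the knockout could not be checked from binding, and BATF peaks of the Treg genes Foxp3, Ikzf2, Il2ra and Ctla4 were higher in Treg than in Tconv cells at 21 of 23 peaks, where 14.9% of all BATF peaks were called higher and 4.79% lower. Among genes of other cell types, BATF was higher at 1 and lower at 3 of 13 peaks of CD8 and NK cell genes, higher at 1 of 3 B cell gene peaks and higher at 2 of 5 myeloid gene peaks, and their part in the results was not tested.

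**Figure D1:**
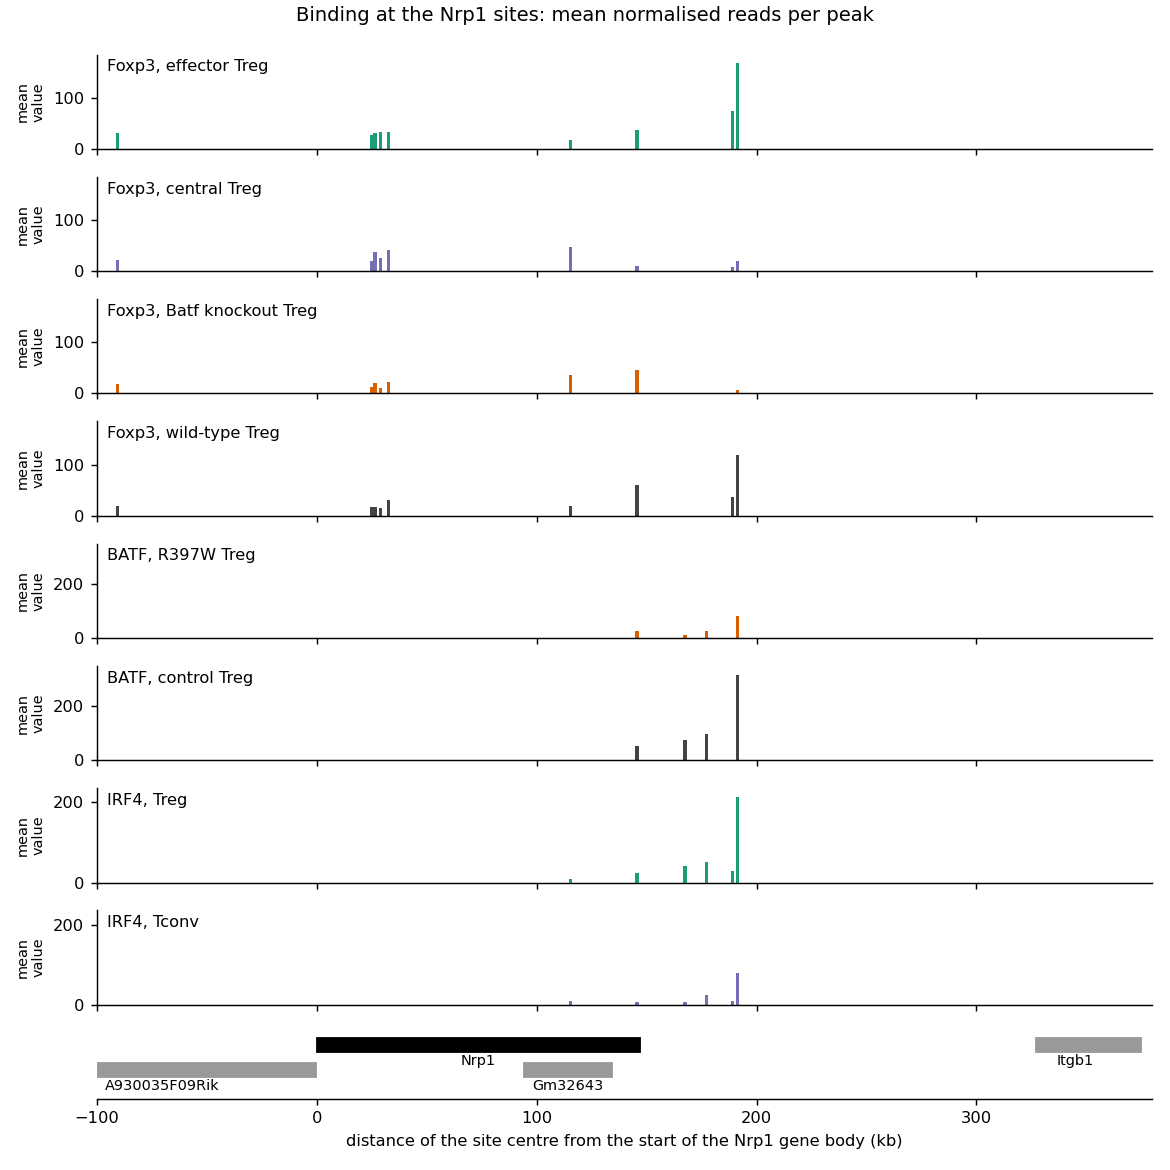
Mean normalised reads per peak (vertical axes) at the Nrp1 sites against distance from the start of the Nrp1 gene body in kb (horizontal axis), for 8 groups from top to bottom, with gene bodies drawn below and the long non-coding A930035F09Rik cut at the left edge. The promoter site, listed in the first BATF table only, is not drawn. The BATF peak 42.1 kb past the gene end is listed in that table only too, so no BATF bar stands there. Bars are group means of 2 libraries for Foxp3 and BATF (second table) and of 4 for IRF4, and the bar 44.5 kb past the gene end is the highest in effector Treg, wild-type Treg, both BATF rows and both IRF4 rows.

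The highest Foxp3 value at the locus was at a site 44.5 kb past the end of Nrp1, between its last base and Itgb1, which is another 135.5 kb away. This site carried all 3 factors (Foxp3 peak 128549726 to 128550126, BATF peaks from 128549736 and 128549745, IRF4 peak from 128549755). Foxp3 there stood at 159.7 and 176 in the 2 effector Treg libraries, against 22.6 and 18.5 in the central Treg libraries. The groups did not overlap, and the lowest effector library was several times above the highest central one. Effector libraries averaged 168 ± 11.5 and central libraries 20.6 ± 2.90 (SD, n = 2 each), a 7.84-fold difference (log2 fold change 2.97, SE 0.28, limma adjusted p = 7.63e-08). In rank, the site was number 17 and 22 of 6396 Foxp3 peaks in the effector libraries, and number 4195 and 4930 in the central ones.

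In Treg cells without BATF the same site had little Foxp3. It stood at 6.10 and 9.01 in Batf knockout libraries, which is 6 and 7 reads, against 103 and 134 in wild-type libraries. The knockout libraries lay far below both wild-type libraries. The log2 fold change was -3.81, or 14.1-fold lower in the knockout, and only 9 of the 6396 Foxp3 peaks had a lower one. Summed over libraries, 13 reads in knockout against 262 in wild-type cells gave a ratio of 0.0616 after scaling, with a 95% counting interval of 0.0324 to 0.107 that covers counting error only. This contrast chose the locus and is not a test of it.

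The order of Foxp3 levels at the 44.5 kb site was effector Treg, wild-type Treg, central Treg and Batf knockout Treg. No neighbouring groups in that order overlapped. The wild-type cells were not sorted into central and effector cells. The site held 35.5% and 38.5% of the Foxp3 value summed over the 9 Nrp1 peaks in effector libraries and 9.39% and 8.31% in central libraries, and 3.68% and 4.76% in Batf knockout against 31.2% and 39.7% in wild-type libraries.

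A second Foxp3 site, 42.1 kb past the gene end (128547360 to 128547760), had the same order. Foxp3 was at 79.8 and 68.1 in effector Treg libraries, against 10.7 and 5.19 in central ones. That was 8.80-fold higher in effector cells (log2 fold change 3.14, SE 0.45, limma adjusted p = 1.45e-05), with no overlap. In Batf knockout libraries it had 1.02 and 2.57, which is 1 and 2 reads, against 36.4 and 37.6 in wild-type libraries. The 3 knockout reads against 81 wild-type reads gave a scaled ratio of 0.0460 with a 95% counting interval of 0.00929 to 0.139. That interval covers counting error only and is no test, because the knockout contrast chose the locus.

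Another site lay inside the gene body, 1.2 kb before its end (128504059 to 128504459), and was higher in effector cells as well. Foxp3 was at 39.3 and 33.5 in effector libraries and at 6.66 and 12.6 in central libraries. It was 3.65-fold higher in effector cells (log2 fold change 1.87, SE 0.33, limma adjusted p = 0.000151). In Batf knockout libraries Foxp3 was at 45.7 and 47.6, against 72.8 and 49.3 in wild-type libraries, a log2 fold change of -0.35. Every knockout value was below both wild-type values, yet the gap to the nearer one was small beside the spread of the wild-type pair.

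The site 115.4 kb into the gene (128473817 to 128474217), within the long non-coding gene Gm32643, ran the other way. Foxp3 was at 20.3 and 16.1 in effector libraries and at 50.6 and 43.0 in central libraries, so that effector cells were 2.50-fold lower (log2 fold change -1.32, SE 0.34, limma adjusted p = 0.00515). The call was lost without effector library 2 (adjusted p = 0.0663) or without central library 1 (adjusted p = 0.0655). In Batf knockout libraries it was at 35.6 and 38.6, against 24.3 and 12.5 in wild-type libraries, which do not overlap. The log2 fold change was 1.04, the 122nd highest of the 6396 peaks.

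The other 5 Foxp3 sites carried Foxp3 alone and were not called between effector and central Treg cells. They lie 90.5 kb before the gene start, within A930035F09Rik, and 24.9, 26.6, 29.0 and 32.7 kb into the gene. Foxp3 at them ranged between 22.8 and 34.0 in effector libraries and between 15.6 and 44.0 in central libraries. Log2 fold changes were 0.54, 0.46, -0.22, 0.34 and -0.36, with limma adjusted p = 0.327, 0.453, 0.690, 0.555 and 0.439 in that order. In the same order, log2 fold changes of Batf knockout against wild-type cells were -0.02, -0.29, 0.22, -0.48 and -0.46, with values between 10.3 and 23.2 in knockout and between 13.1 and 32.4 in wild-type libraries. Site by site, effector and central libraries overlapped only at 24.9 kb, though none of these sites was called. Knockout and wild-type libraries did not overlap at 26.6, 29.0 and 32.7 kb. Lack of overlap thus does not set the called sites apart. Over the locus, 3 of 9 Foxp3 peaks were higher and 1 was lower in effector Treg cells, where 15.0% of all Foxp3 peaks were higher and 10.8% lower. In the knockout contrast, which shares its fit with this one, 0.547% of all Foxp3 peaks were higher and 3.91% lower.

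**Figure D2:**
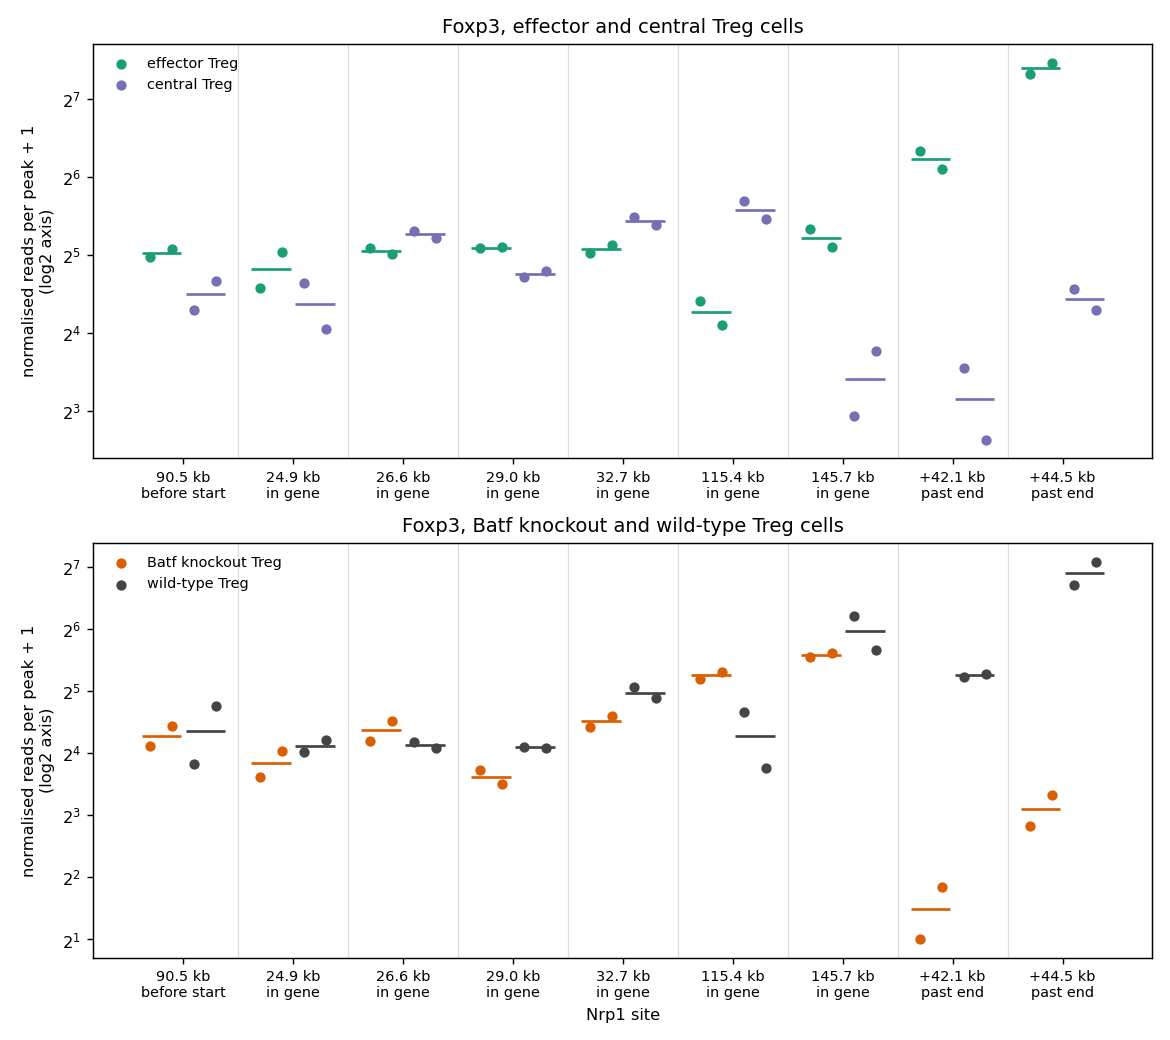
Foxp3 at the 9 Nrp1 sites with a Foxp3 peak, in order along the chromosome (horizontal axis), as normalised reads per peak plus 1 on a log2 axis, for effector and central Treg libraries (top) and Batf knockout and wild-type Treg libraries (bottom). Points are libraries and lines are group means. The sites 42.1 and 44.5 kb past the gene end separate both pairs of groups by the widest gaps, while the site 145.7 kb into the gene separates mainly effector from central cells.

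BATF in Treg and Tconv cells was compared in the first BATF table. BATF was higher in Treg cells at all 4 downstream peaks, while the promoter peak just missed the threshold. At the 44.5 kb site it stood at 498 and 338 in Treg libraries, against 65.0 and 64.3 in Tconv libraries. This was 6.26-fold higher (log2 fold change 2.65, SE 0.21, limma adjusted p = 5.29e-07). Even in Tconv cells the peak held 56 and 90 reads, so BATF was not near the floor there.

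At the other downstream sites Tconv cells had few reads. At 30.4 kb (128535690 to 128536090), BATF was at 120.2 and 97.1 in Treg libraries and at 9.29 and 2.86 in Tconv libraries, 17.3-fold higher in Treg cells (log2 fold change 4.11, SE 0.51, limma adjusted p = 2.26e-05). At 20.7 kb (128525937 to 128526337) it was at 52.9 and 38.4 in Treg and at 8.13 and 2.86 in Tconv libraries (log2 fold change 2.96, SE 0.61, limma adjusted p = 0.00190). At 42.1 kb (128547364 to 128547764) it was at 62.2 and 54.2 in Treg and at 15.1 and 2.86 in Tconv libraries (log2 fold change 2.91, SE 0.61, limma adjusted p = 0.00214). At none of these 3 sites did the groups overlap, and Tconv library 2 held 4 reads at each. The size of these differences rests on the Tconv libraries: without Tconv library 2 the log2 fold changes were 2.34 at 20.7 kb, 3.41 at 30.4 kb and 1.88 at 42.1 kb, and without Tconv library 1 they were 3.58, 4.82 and 3.94. Without Treg library 1 the call at 20.7 kb was lost (adjusted p = 0.0721).

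At the promoter BATF was at 43.5 and 47.4 in Treg and at 17.4 and 21.4 in Tconv libraries. The groups did not overlap, but the difference missed the threshold (log2 fold change 1.19, SE 0.42, limma adjusted p = 0.0549). It passed with a pseudocount of 4 (adjusted p = 0.0405), with no mean-dependent spread in limma (0.0142) and with edgeR on the recovered reads (0.0374), and missed it with DESeq2 (0.160), quantile normalisation (0.192) and TMM factors (0.0517), and at 0.0522 to 0.230 without 1 library. In all, 4 of 5 Nrp1 peaks were higher in Treg cells, where 14.9% of all BATF peaks were higher and 4.79% lower.

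BATF in R397W Treg cells was set against control Treg cells in the second BATF table. Its values in R397W libraries lay below both control values at each of the 4 Nrp1 peaks of that table. The share of all peaks of that table that separate in this way was not counted. At the 44.5 kb site BATF was at 94.0 and 67.9 in R397W libraries, against 285 and 349 in control libraries. This was 3.91-fold lower (log2 fold change -1.97), and its scaled read ratio was 0.247 with a 95% counting interval of 0.202 to 0.302. That interval covers counting error only and is no test, because this contrast chose the locus. In rank the site was number 812 and 1789 of 9973 BATF peaks in R397W libraries and number 13 and 9 in control libraries.

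The other 3 sites of that table lay below their controls as well. The site 42.1 kb past the gene end has no peak in that table, so BATF in R397W cells is not known there. At 20.7 kb BATF was at 11.97 and 8.32 in R397W and at 41.6 and 107 in control libraries (log2 fold change -2.63). At 30.4 kb it was at 13.7 and 39.5 in R397W and at 103 and 89.9 in control libraries (log2 fold change -1.998). At the site 1.2 kb before the gene end it was at 27.4 and 22.9 in R397W and at 55.5 and 51.9 in control libraries (log2 fold change -1.07). None of the groups overlapped, but the pairs at 20.7 and 30.4 kb were wide: without the second control column the value at 20.7 kb was -1.96 and without the first it was -3.30, and without R397W library 1 the value at 30.4 kb was -1.27 and without library 2 it was -2.73. The second control column was the shallowest, with 144319 reads in peaks. Of all peaks of the second table, limma called 0.612% higher and 8.04% lower, but the locus was chosen by this contrast, so no test is given for its peaks.

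The Treg and Tconv libraries of the first table appear in the second one too, scaled anew. At the 44.5 kb site they had 286 and 196 in Treg and 38.7 and 39.6 in Tconv cells. The order of BATF levels there was thus control Treg, Treg, R397W Treg and Tconv cells. Control and Treg libraries overlapped, R397W libraries lay below both, and Tconv libraries lay lowest. At the site 1.2 kb before the gene end, which has no peak in the first table, BATF was at 32.7 and 17.1 in Treg and at 2.82 and 1.32 in Tconv libraries, and the R397W values lay within the range of the Treg pair. At 20.7 kb the Treg libraries had 30.4 and 22.3, above the R397W pair, and the Tconv libraries 4.93 and 1.76. At 30.4 kb they had 69.1 and 55.1 in Treg and 5.63 and 1.76 in Tconv cells, on either side of the R397W pair.

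**Figure D3:**
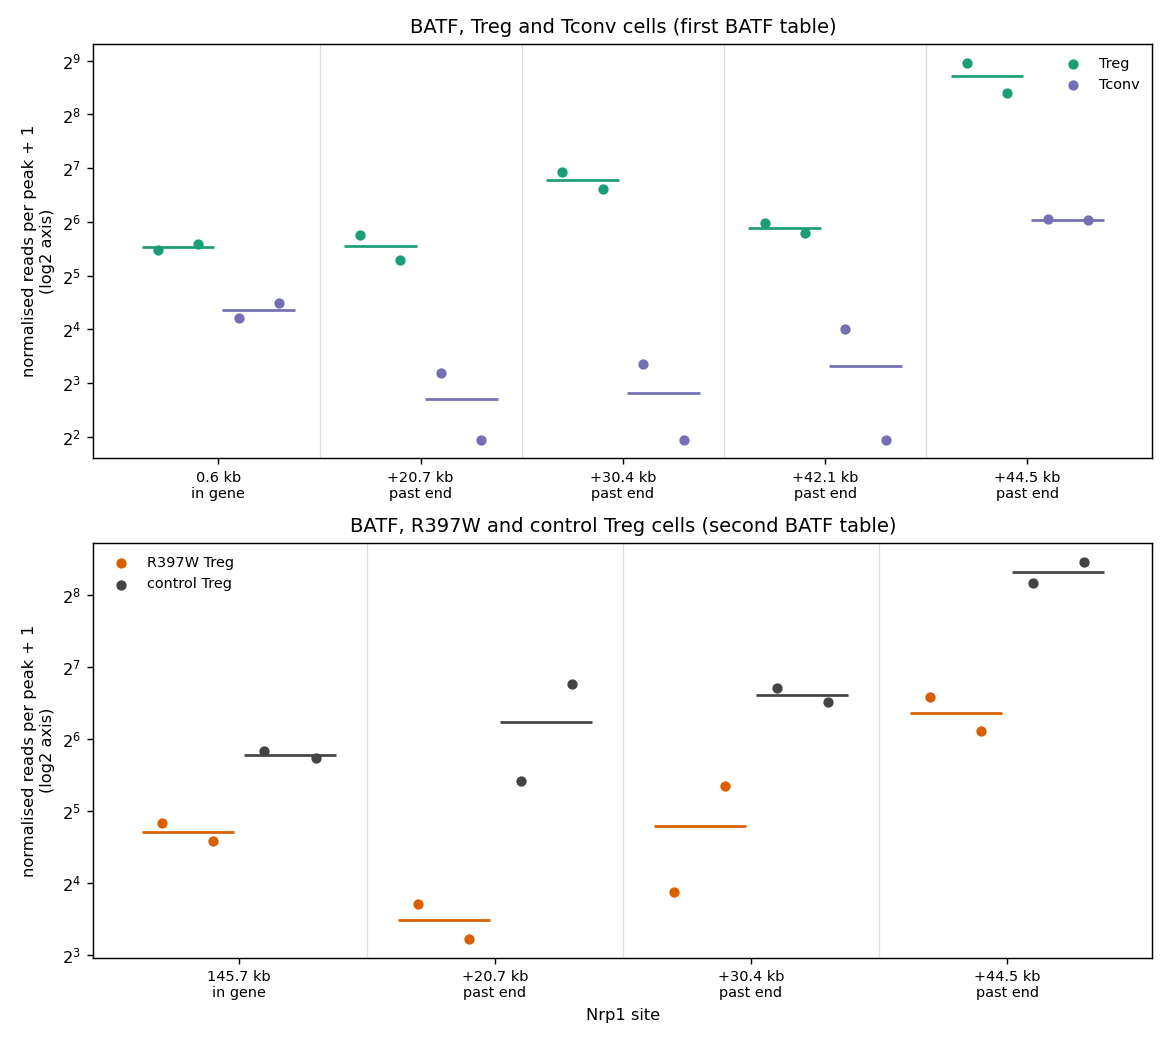
BATF at the Nrp1 sites (horizontal axis, in order along the chromosome) as normalised reads per peak plus 1 on a log2 axis, for Treg and Tconv libraries of the first BATF table (top) and R397W and control Treg libraries of the second (bottom). Points are libraries and lines are group means of 2. Treg libraries lie above Tconv libraries at each of the 5 sites of the first table, and R397W libraries lie below control libraries at each of the 4 sites of the second. With 2 libraries a group, such separation is a description only, and its share over all peaks was not counted.

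IRF4 was compared between Treg and Tconv cells at 6 Nrp1 sites. It was higher in Treg cells at 5 of them, where 15.8% of all IRF4 peaks were higher and 8.39% lower. The widest difference was at 20.7 kb (128525918 to 128526318), with 26.7, 49.2, 50.2 and 39.2 in Treg and 4.04, 5.57, 4.51 and 9.14 in Tconv libraries. All Treg libraries lay above all Tconv libraries, by 6.27-fold in the fit (log2 fold change 2.65, SE 0.38, limma adjusted p = 2.71e-05).

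At the 44.5 kb site IRF4 was at 257, 206, 191 and 200.3 in Treg libraries, against 145, 56.4, 46.9 and 73.1 in Tconv libraries. The groups did not overlap, and Treg cells were 2.89-fold higher (log2 fold change 1.53, SE 0.26, limma adjusted p = 0.000154). At 42.1 kb IRF4 was at 31.3, 23.8, 27.8 and 34.9 in Treg and at 17.0, 4.87, 3.61 and 8.0 in Tconv libraries, again with no overlap (log2 fold change 1.89, SE 0.42, limma adjusted p = 0.00184). At 1.2 kb before the gene end it was at 21.2, 14.3, 24.6 and 31.5 in Treg and at 9.69, 4.87, 5.41 and 12.6 in Tconv libraries (log2 fold change 1.42, SE 0.42, limma adjusted p = 0.0149). That last call was lost without Treg library 3 (adjusted p = 0.0521) or library 4 (adjusted p = 0.0729).

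At 30.4 kb the groups overlapped. IRF4 was at 55.3, 71.4, 31.0 and 48.6 in Treg and at 58.2, 15.3, 8.12 and 11.4 in Tconv libraries (log2 fold change 1.47, SE 0.41, limma adjusted p = 0.00959). Tconv library 1 alone reached into the Treg range, and the call was lost with DESeq2 (adjusted p = 0.234) and with no mean-dependent spread in limma (adjusted p = 0.0572). The site within Gm32643 showed no difference that passed the test, with 4.61, 9.52, 15.0 and 7.67 in Treg and 13.7, 1.39, 8.12 and 18.3 in Tconv libraries (log2 fold change 0.10, SE 0.58, limma adjusted p = 0.932). IRF4 was low there in both cell types, at 2 to 17 reads per library.

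Tconv library 1 was the highest of the Tconv libraries at the 3 sites from 30.4 to 44.5 kb. Its IRF4 value summed over the 6 Nrp1 peaks was 248, against 88.4, 76.7 and 133 in the other Tconv libraries and 340 to 396 in Treg libraries. At 1705 IRF4 peaks on BATF sites called higher in Treg cells, its median value was 21.8, against 20.2, 18.9 and 21.7 in the other Tconv libraries and 36.9 to 40.9 in Treg libraries. Without this library the log2 fold change at the 44.5 kb site was 1.86 (limma adjusted p = 5.50e-07) and at 30.4 kb 2.04 (limma adjusted p = 5.19e-05).

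**Figure D4:**
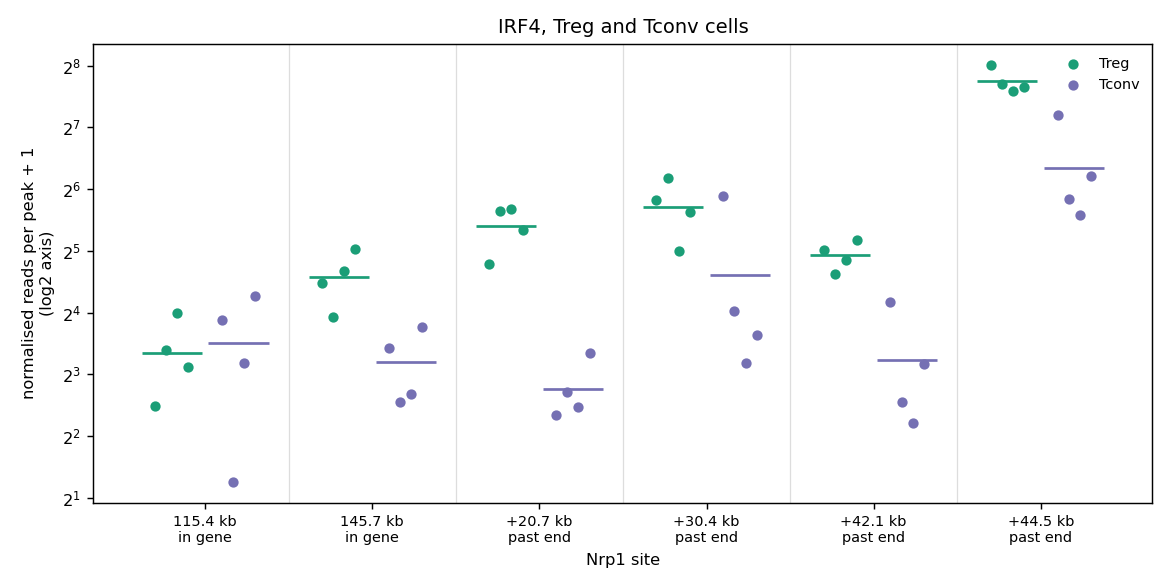
IRF4 at the 6 Nrp1 sites with an IRF4 peak (horizontal axis, in order along the chromosome) as normalised reads per peak plus 1 on a log2 axis, for 4 Treg and 4 Tconv libraries. Points are libraries and lines are group means. Treg and Tconv libraries overlap at the sites 115.4 kb into the gene and 30.4 kb past its end and at no other site.

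Across factors, the downstream region held 4 sites within 23.8 kb, and BATF and IRF4 had a peak at every one of them. Foxp3 was listed only at the 2 farther ones, 42.1 and 44.5 kb past the gene end. The sites at 20.7 and 30.4 kb carried BATF and IRF4 without a listed Foxp3 peak, and BATF values there lay lower in R397W than in control libraries, as given above. The 44.5 kb site also led for the other factors: it was number 46 and 306 of 16109 BATF peaks in Treg libraries, and between number 16 and 34 of 9134 IRF4 peaks in Treg libraries. In Tconv libraries it was number 9670 and 9799 for BATF and between number 73 and 830 for IRF4.

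The peak edge nearest to the distance limit lay 90327 bp before the gene, at the upstream Foxp3 site with 30.4 and 32.9 in effector, 18.6 and 24.5 in central, 16.3 and 20.6 in Batf knockout and 13.1 and 25.9 in wild-type libraries. Just outside, a Foxp3 peak within Itgb1 (128687993 to 128688393) lay 182517 bp from Nrp1. Foxp3 there was at 35.5 and 41.5 in effector and 4.00 and 8.16 in central libraries, and at 8.13 and 5.15 in Batf knockout and 33.4 and 32.6 in wild-type libraries. Its groups separated in the same directions as at the 44.5 kb site. A BATF peak at the start of Itgb1 (128685453 to 128685853) did not separate Treg from Tconv cells, with 137 and 107 in Treg and 141 and 94.97 in Tconv libraries.

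Sites elsewhere with a pattern like that of the 44.5 kb site were sought over 24 libraries of the Foxp3, second BATF and IRF4 tables. Pearson's r of log2 values, each less its mean over the libraries of the same table, was taken against 1351 sites that have a peak in the same 3 tables and belong to other genes. The highest r were 0.9498 at a site 56786 bp from Pkdcc, a secreted tyrosine kinase gene (chromosome 17, 83158097 to 83158497), 0.937 within Mmp10, a matrix metalloproteinase gene (chromosome 9, 7509883 to 7510283), and 0.928 within Ptpn13, a protein tyrosine phosphatase gene (chromosome 5, 103442149 to 103442549). They were followed by 0.927 at a site 61780 bp from Ankrd46 (chromosome 15, 36415488 to 36415888) and 0.926 within Gnptab, a lysosomal enzyme tagging gene (chromosome 10, 88405754 to 88406154). The median r over all sites was 0.130, the 95th percentile 0.812, and 12 sites were above 0.9. All points share libraries, depth and scaling, so r describes likeness over these libraries only. Within the locus, the site 1.2 kb before the gene end, the other one with a peak in these 3 tables, had r = 0.577 with the 44.5 kb site.

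At these 5 sites Foxp3 was high in effector and wild-type libraries and low in central and knockout libraries. The sites were picked for likeness over libraries that include these, so the shared pattern follows from the choice. At Pkdcc it was 64.6 and 73.8 in effector and 3.71 and 4.00 in central libraries, and 3.86 and 4.06 in Batf knockout against 81.0 and 82.9 in wild-type libraries. At Ankrd46 it was 83.6 to 127 in effector and 11.1 to 14.7 in central libraries, and 7.72 to 10.2 in Batf knockout against 155 to 157 in wild-type libraries. Wild-type libraries lay above effector libraries at both and at Gnptab, the groups overlapped at Mmp10, and at Ptpn13 effector libraries (49.0 and 60.8) lay above wild-type libraries (31.7 and 43.5), the order seen at Nrp1. The 44.5 kb Nrp1 site had the highest effector values of the 6 sites.

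**Figure D5:**
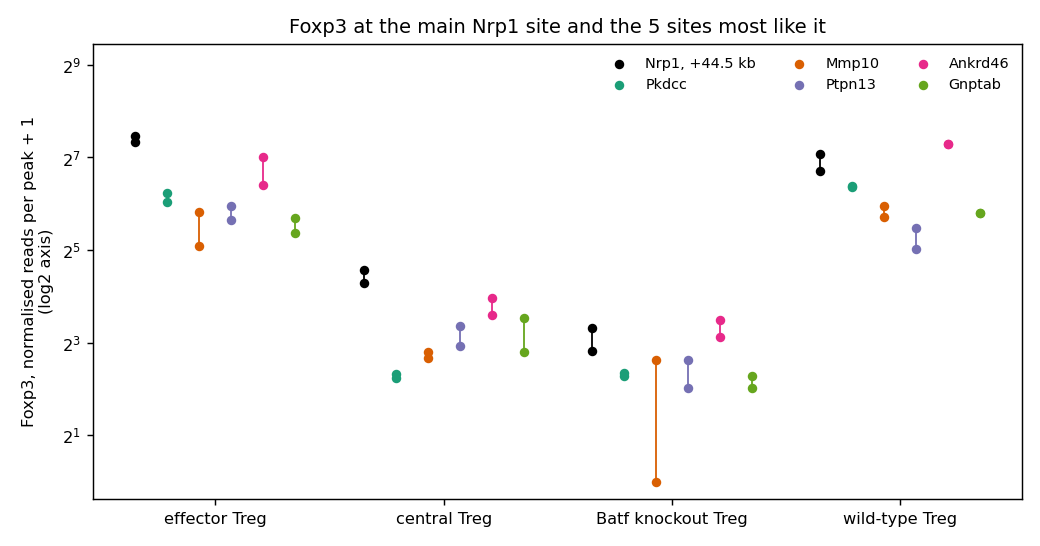
Foxp3 at the Nrp1 site 44.5 kb past the gene end and at the 5 sites most like it (colours), as normalised reads per peak plus 1 on a log2 axis, in effector, central, Batf knockout and wild-type Treg libraries (horizontal axis). Points are libraries and a line joins the 2 of a group. All 6 sites are high in effector and wild-type and low in central and knockout libraries. The 5 sites were picked for likeness over libraries that include these, so the shared pattern follows from the choice.

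Other genes of the neuropilin pathway were read from a list of 45 semaphorins, vascular endothelial growth factors, plexins, VEGF receptors and adaptors. BATF had 33 peaks at 16 of them, of which 4 were higher and 1 lower in Treg than in Tconv cells, that is 12.1% and 3.03%, near the 14.9% and 4.79% of all BATF peaks, with a median log2 fold change of 0.02 beside -0.03 over all peaks. IRF4 had 19 peaks at 9 genes, of which 7 were higher and 1 lower, that is 36.8% and 5.26% where all IRF4 peaks had 15.8% and 8.39%, with a median of 0.17 beside -0.05. The 7 higher peaks were all at Sema4d, Plxnc1 and Sema6d, and peaks of the same gene were counted separately. Foxp3 had only 7 peaks at 3 genes. Between effector and central Treg cells limma called 0 of them (1 lower and 0 higher at p under 0.05 before adjustment, 1 lower by edgeR and 0 by DESeq2), with a median of -0.24 beside -0.01. Between Batf knockout and wild-type cells limma, edgeR and DESeq2 called 0 of these 7 (at p under 0.05 before adjustment, 1 higher and 0 lower), with a median of 0.00 beside 0.05. In R397W against control Treg cells, BATF was lower at 2 and higher at 0 of 28 peaks (at p under 0.05 before adjustment, 3 lower and 0 higher, with 2 lower by edgeR and 1 by DESeq2), with a median of -0.02 beside -0.02. These 2 are 7.14% of the peaks, near the 8.04% of all peaks of that table called lower.

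The largest changes on that list were at Sema4d, the semaphorin CD100, on chromosome 13. At an in-gene peak (51732275 to 51732675) BATF was at 36.3 and 79.1 in Treg and at 1.43 and 2.32 in Tconv libraries (log2 fold change 4.27, SE 0.69, limma adjusted p = 0.000233), and IRF4 was higher there too (12.7 to 24.9 in Treg, 0 to 6.46 in Tconv libraries, limma adjusted p = 0.00108). In R397W libraries BATF at this peak was at 1.39 and 8.55, against 35.5 and 41.5 in control libraries (log2 fold change -3.04, SE 0.76, limma adjusted p = 0.0199). A second in-gene Sema4d peak (51712006 to 51712406) was also higher in Treg cells (70.0 and 106 in Treg, 0 and 27.8 in Tconv libraries, limma adjusted p = 0.00645) and lower in R397W cells (21.5 and 39.3 in R397W, 75.6 and 86.5 in control libraries, limma adjusted p = 0.0223). In Plxnc1, a plexin that serves as a semaphorin receptor, BATF was at 44.6 and 64.4 in Treg and at 5.00 and 6.97 in Tconv libraries (log2 fold change 2.98, SE 0.54, limma adjusted p = 0.000574). At Sema7a, a membrane-anchored semaphorin gene, BATF was instead lower in Treg cells, with 23.7 and 23.8 in Treg and 65.0 and 67.4 in Tconv libraries (log2 fold change -1.44, SE 0.36, limma adjusted p = 0.00722). IRF4 was higher in Treg cells near Plxnc1 (3.17 to 18.8 in Treg, 0 to 5.41 in Tconv libraries, limma adjusted p = 0.00715) and near Sema6d (11.1 to 25.8 in Treg, 0 to 4.87 in Tconv libraries, limma adjusted p = 0.00317).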

How the data were processed

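ChIP-seq of Foxp3, BATF and IRF4 was deposited as 4 tables of peaks with a normalised peak score per library, a read signal that the authors scaled per library. The build mm10 and the tools DiffBind 3.12.0, MACS2 2.2.7.1, edgeR 3.38.4 and Bowtie2 2.4.1 are named, with no role, per the submitters' processing notes. The deposited signal values are whole multiples of 1 number per library (100% of values within 0.01 of a whole read), so reads were recovered from them. The input libraries have no column and were not used.

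Peaks were given to the nearest protein-coding gene of RefSeq GRCm38.p6 within 100000 bp. limma 3.58.1 in R 4.3.3 was run on log2(value + 1), with mean-dependent spread (trend), two-sided and adjusted by Benjamini-Hochberg over all peaks of a table. The 8 Foxp3 libraries shared 1 fit, and the other comparisons used their own libraries. Files were read with Python 3.11.15. The fit was also run on simulated reads scaled by TMM factors, unlike the deposited values, and its outcome is not reported here. Alternatives were a pseudocount of 4, a filter at the 25th percentile of the mean, TMM and quantile normalisation, edgeR 4.0.16 and DESeq2 1.42.0 on the recovered reads, no trend, a replicate block, a limit of 50000 bp and each library left out. Counting intervals are exact conditional intervals of 2 Poisson counts, and cover counting error only. Control columns of the R397W cells are known by group and not by sample. Both BATF tables hold the same Treg and Tconv libraries, and in 402 intervals that both list their reads differed in 1 value. No 2 libraries of a table were identical.

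The members, the gene lists and the tests were chosen with earlier results of these data known. All Nrp1 peaks are reported. The main site is the Nrp1 site with the highest mean Foxp3 value over the 8 Foxp3 libraries. The 5 sites with the highest correlation to it, and up to 3 pathway genes per comparison with the largest called change, are named.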

Additional observations from a re-analysis of the deposited data

Results flagged for a closer look

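Of 12 groups of 4 IRF4 libraries, 1 held a library far from the others. At the site 30.4 kb past the gene end, Tconv library 1 stood at 58.2 normalised reads per peak, while the other Tconv libraries lay between 8.12 and 15.3. Its gap to the nearest of them was 0.856 of the range of the group, above Dixon's critical value of 0.829 for 4 samples. Chance marks about 1 in 20 groups. The library has 298945 reads in peaks, where the IRF4 libraries range between 162580 and 336969. Why it stands apart was not tested.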

How the results depend on the processing

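Of the recomputed values for single Nrp1 peaks, 363 kept their direction and their side of the threshold or moved by less than the spread between libraries, 4 moved further without a test, 4 newly passed and 7 no longer passed. Signs changed at 2 peaks near 0. Foxp3 at the upstream site in Batf knockout against wild-type cells was -0.02, but 0.07 with quantile normalisation and -0.48 to 0.45 without 1 library, within the spread between libraries. The count of BATF peaks higher in Treg cells was 4 of 5 and fell to 2 with the filter at the 25th percentile, which only 2 of the 5 peaks pass. Leaving out 1 library at a time gave 3 to 4 BATF peaks, 4 to 5 IRF4 peaks and 3 to 4 Foxp3 peaks called. The log2 fold change of Foxp3 at the 44.5 kb site in Batf knockout against wild-type cells was -3.81, but -3.41 with a pseudocount of 4 and -3.33 with quantile normalisation, and lay between -4.06 and -3.56 without 1 library. That of BATF in R397W against control cells lay between -2.20 and -1.74 without 1 library. IRF4 at the site within Gm32643, which was called in no setting, changed sign to -0.0011 with a pseudocount of 4, -0.14 with quantile normalisation, -0.15 without Treg library 3, -0.14 with edgeR and -0.16 with DESeq2, and lay between -0.53 (without Tconv library 2) and 0.47 without 1 library. The cause was not tested. Over whole tables, quantile normalisation called 1075 Foxp3 peaks higher and 1062 lower in effector cells, against 958 and 688, and 2086 BATF peaks higher and 1291 lower in Treg cells, against 2395 and 772. It moved the median log2 fold change of all BATF peaks from -0.03 to -0.13.

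Whether libraries with the same number pair was not settled. Correlations of their deviations were 0.09 for BATF, -0.09 to 0.14 for Foxp3 and 0.03 to 0.13 for IRF4. For IRF4 all were positive, and 6 of 8 libraries correlated best with their own number. With 2 libraries a group, as for BATF and Foxp3, the deviations mirror each other, so they say little about pairing. With the number as a replicate block, 5 BATF peaks were called (the promoter at adjusted p = 0.0388), 5 IRF4 peaks and 4 Foxp3 peaks. The knockout value was -3.81 with the block. Control columns of the R397W cells carry no sample number, so no paired analysis was possible there.

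With 2 libraries a group, sites of few reads set the limits: 4 reads in Tconv library 2 at 3 BATF sites, 1 and 2 reads in knockout libraries at the 42.1 kb Foxp3 site, and 3 reads worth 10.4 in the shallowest BATF library.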

Other observations

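IRF4 had a peak near the start of Itgb1 (chromosome 8, 128684961 to 128685361), 179485 bp past the end of Nrp1, where no rule placed it among the Nrp1 sites. It stood at 22.1, 25.4, 20.3 and 12.8 in Treg and at 28.3, 6.27, 6.32 and 17.1 in Tconv libraries, and the groups overlapped. Tconv library 1 was again the highest Tconv library. Another IRF4 peak, 300379 bp before Nrp1 and over 100000 bp from any protein-coding gene (128057812 to 128058212), stood at 15.7, 41.2, 20.3 and 24.7 in Treg and at 11.3, 4.18, 4.51 and 8.0 in Tconv libraries, with no overlap. BATF at the start of Itgb1 was at 39.3 and 72.1 in R397W and at 58.6 and 48.4 in control libraries, which overlapped. On the other side, at the nearest upstream BATF peak of the same table (126884152 to 126884552), 46112 bp from Tomm20, BATF was at 32.5 and 58.9 in R397W and at 123 and 93.4 in control libraries, with no overlap, as at the 4 Nrp1 peaks.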
